A study of Mus musculus with 15 samples.

Results

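The YAP-TEAD genes described here are 10 of the 51826 genes listed in the RNA-seq tables of mouse mammary tumors driven by Trim24. They were chosen by symbol: the co-activators Yap1 and Wwtr1 (the gene of TAZ), the DNA-binding factors Tead1, Tead2 and Tead4, and the target genes Ctgf, Cyr61, Ankrd1, Amotl2 and Ajuba. All 10 were found in each of the 15 libraries, where each matched 1 row. Ctgf and Cyr61 carry their newer names Ccn2 and Ccn1 in one of the tables and were joined by gene identifier.

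YAP and TAZ do not bind DNA themselves. They enter the nucleus and bind TEAD proteins, which recognise short DNA elements near target genes. The Hippo kinases MST and LATS phosphorylate YAP and TAZ and so hold them in the cytoplasm, which means that the RNA level of Yap1 or Wwtr1 does not measure the activity of the proteins. In the mammary gland the pathway is known for its link to cell shape, stiffness of the matrix and the basal (myoepithelial) cell state, and the matricellular genes Ctgf and Cyr61 and the ankyrin repeat gene Ankrd1 are its most used readouts.

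The tables hold 15 libraries from 13 mice. The Trim24COE tumors came from virgin females in which MMTV-Cre (line D) removes a floxed stop from a piggyBac transgene of Flag-tagged mouse Trim24. This transgene sits at a single site and is switched on in the mammary epithelium, and the labels class the tumors as carcinosarcoma (mice 64, 567 and 897) or carcinoma (mice 89, 273_5 and 3956). The control glands (133, 392, 417_3 and 517_3) were whole, tumor-free mammary glands of Cre control mice, which carry MMTV-Cre without the transgene. The non-TRIM24 tumors (219, FVB001 and FVB002) arose spontaneously in mice whose genotype the labels call unknown, and are classed as carcinoma. The strain label is FVB for every mouse, while the series' design text says FVB/129 for the control mice. The study's pathologists gave differing classes for tumors 89, 567 and 3956, so each class is that of the labels. Sequencing batch 2 holds the 3 non-TRIM24 tumors and repeat libraries of gland 133 and tumor 3956, and batch 1 holds all other libraries.

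Values are TPM, a transcript abundance scaled for length and library, which can be compared between genes. They hold no read depth, so the counting error behind a value is unknown. Trim24 had 10.6 to 24.1 TPM in the 6 Trim24COE tumors and 14.5 to 22.4 TPM in the 4 control glands, so its RNA level gives no check of the labels. The control glands differed in composition. The summed TPM of 6 adipocyte markers was 19377 in gland 133 and 25981 in gland 392, but 1707 in gland 417_3 and 1888 in gland 517_3, and 6 myoepithelial markers summed to 264.5, 348.3, 3773 and 3859 in the same order. Epithelial markers (5 genes) summed to 720.6, 1260, 3899 and 4157 TPM in these glands. Among the non-TRIM24 tumors, adipocyte markers summed to 33555 in FVB001 and 16094 in FVB002 but to 137.3 in 219, and Epcam, an epithelial marker, was 36.4 TPM in FVB001. In such whole-tissue RNA, fewer cells of a type and less RNA per cell cannot be told apart.

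The promoter sequences show where these genes carry the core of the TEAD element. The letters GGAATG, or CATTCC on the other strand, were searched on both strands from 250 bases before to 50 bases after each gene start in the RefSeq promoter table (GRCm38.p6). The table held promoters for 7 of the 10 genes, and 6 of these 7 genes (Yap1, Wwtr1, Cyr61, Ankrd1, Amotl2 and Ajuba) had at least 1 copy, against 14.7% of the 32851 promoters in the table. Ankrd1 and Ajuba had 2 copies, as did 1.36% of all promoters (2 or more). Tead2 had none, and no promoter of Tead1, Tead4 or Ctgf is shown. The 30 bases around each copy, in the direction of the gene, are given with the 6 searched letters in capitals, because the gene that rose in the tumors (Ankrd1), the gene that fell (Amotl2) and others that did not pass the test all have them. The windows lie at chr9:8004720-8004749 (Yap1, minus strand), chr3:57576029-57576058 (Wwtr1, minus), chr3:145650071-145650100 (Cyr61, minus), chr19:36120037-36120066 and chr19:36119950-36119979 (Ankrd1, minus), chr9:102717727-102717756 (Amotl2, plus), and chr14:54577830-54577859 and chr14:54577808-54577837 (Ajuba, minus). The RefSeq starts of Ankrd1 and Amotl2 differ from the GENCODE gene spans given below, so their windows lie inside those spans. A match is a description of the letters and not a bound site.
Yap1: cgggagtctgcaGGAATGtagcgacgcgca
Wwtr1: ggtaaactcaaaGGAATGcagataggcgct
Cyr61: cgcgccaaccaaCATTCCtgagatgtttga
Ankrd1, upstream copy: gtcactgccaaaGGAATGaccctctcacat
Ankrd1, downstream copy: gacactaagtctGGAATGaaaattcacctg
Amotl2: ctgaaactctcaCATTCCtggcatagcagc
Ajuba, upstream copy: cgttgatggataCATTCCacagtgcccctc
Ajuba, downstream copy: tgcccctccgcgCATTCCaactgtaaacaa

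The comparison of Trim24COE tumors with control glands asks which genes differ between tumor and tumor-free gland. Of the 10 YAP-TEAD genes, Ankrd1 rose and Amotl2 fell, and the other 8 did not pass the test (limma on log2(TPM + 1), adjusted p under 0.05 over 15196 genes). All tests were two-sided. Over all genes tested, 17.1% passed in this comparison, 7.96% higher and 9.13% lower in the tumors, so 2 of 10 is close to the background. The median log2 fold change of the 10 genes was 0.06, and that of all genes tested was -0.04. Yap1, Wwtr1, Tead1, Tead2, Ctgf and Cyr61 had log2 fold changes between -0.35 and 0.22, with standard errors (SE) from 0.31 to 1.03. The targets did not move in one direction: Ankrd1 rose in the tumors, Amotl2 fell, and Cyr61 and Ctgf were spread as widely among the control glands as between the groups.

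**Figure D1:**
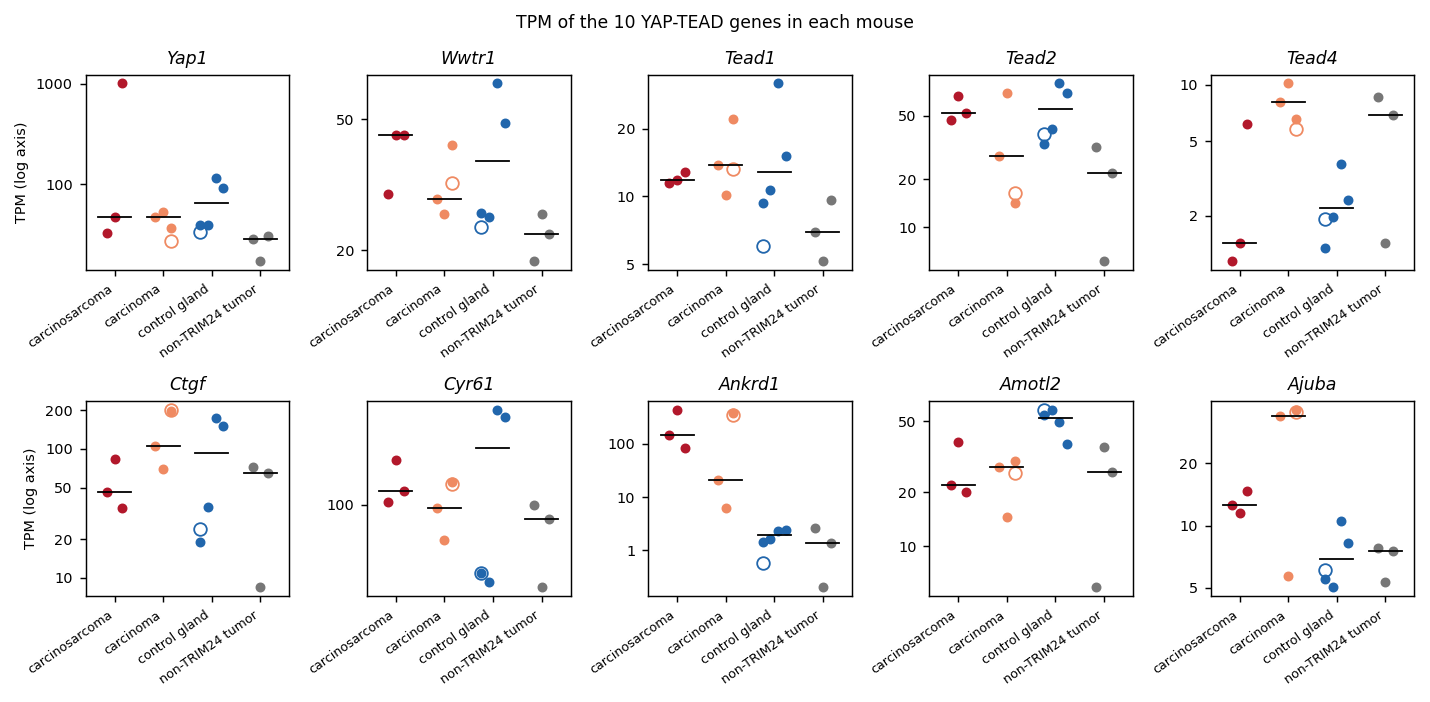
TPM (log axis) of the 10 YAP-TEAD genes in each mouse, by group. Filled points are mice, open circles are the repeat libraries of gland 133 and tumor 3956, and black lines are group medians. Ankrd1 lies between 6.18 and 443 TPM in the 6 Trim24COE tumors and between 1.42 and 2.34 TPM in the 4 control glands, and Yap1 of tumor 897 stands at 1011 TPM.

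Ankrd1 encodes an ankyrin repeat protein of striated muscle that is widely used as a YAP target gene. It lies on chromosome 19 from 36111961 to 36120099 (GRCm38, GENCODE M21, minus strand). In the carcinosarcomas it had 146 TPM in mouse 64, 443 TPM in mouse 567 and 83.6 TPM in mouse 897. In the carcinomas it had 21.4 TPM in mouse 89, 6.18 TPM in mouse 273_5 and 381 TPM in mouse 3956. The control glands had 1.42, 1.63, 2.26 and 2.34 TPM, so that every tumor lay above every gland. All tumors lay above all glands for 7.39% of the genes tested.

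Between all 6 Trim24COE tumors and the glands, Ankrd1 had a log2 fold change of 4.85 (SE 1.02, adjusted p = 0.0097 in limma), or 28.9-fold on the TPM + 1 scale. Among the carcinosarcomas alone it was 5.94 (SE 0.52, adjusted p = 0.000828 in limma). It stayed past the threshold in all 15 alternatives of that comparison, at adjusted p from 0.000436 to 0.00657. Among the carcinomas alone the log2 fold change was 3.77 (SE 1.16, adjusted p = 0.112 in limma) and did not pass. The carcinosarcomas and carcinomas overlapped, with carcinoma 3956 above carcinosarcomas 64 and 897, and their difference did not pass (log2 fold change 2.16, SE 1.40, adjusted p = 0.504 in limma). It passed in none of 14 alternatives, and without tumor 3956 it was 3.80 (limma adjusted p = 0.0796). With the mean of the adipocyte markers as a covariate, the difference over all 6 tumors was 3.67 and no longer passed (limma adjusted p = 0.118). The repeat library of tumor 3956 had 357 TPM.

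Ankrd1 is also a gene of muscle, and markers of other cell types differed between these samples. The summed TPM of 6 skeletal muscle markers was 1814 in gland 392 and 313.8 in gland 133, where Ankrd1 was 1.63 and 1.42 TPM. The muscle sum was 36.6 in tumor 64, where Ankrd1 was 146 TPM, and 926.9 in tumor 567, where Ankrd1 was 443 TPM. Gland 392 had the highest muscle sum of all libraries. Of the 6 muscle markers, none passed the test in this comparison, and Myh4 was 0.05 TPM in tumor 64. The macrophage markers rose in the tumors (5 of 5 passed): their sum was 5226 TPM in tumor 3956, 5042 in 567, 3469 in 897, 2241 in 64, 1387 in 89 and 1140 in 273_5, against 370.2 to 768.6 in the glands. Of 7 fibroblast markers, 3 rose, and the sum of the list ran from 297.3 TPM in tumor 273_5 to 7988 in tumor 567, against 602.6 to 1496 in the glands. The other 4 did not pass, and among them Dcn had a log2 fold change of -0.96 (limma adjusted p = 0.448). The tumor with the least Ankrd1, 273_5, had the lowest sums of both lists among the 6. Tumors 89 and 897 had fibroblast sums of 2916 and 2072 TPM and Ankrd1 of 21.4 and 83.6 TPM. The markers of the list differed in their order between these tumors. Col1a1 was 770 and 376 TPM in tumors 89 and 897, and Dcn was 253 and 727 TPM. No defining marker of either list was under 1 TPM in any library. The part of these cell types in the Ankrd1 difference was not tested.

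**Figure D2:**
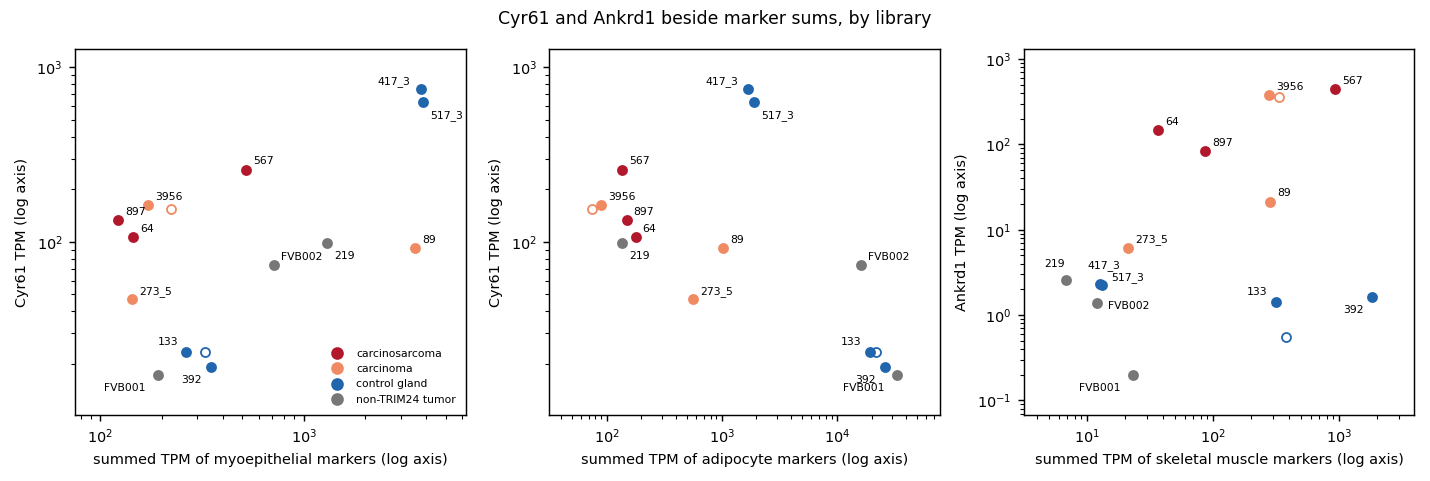
Cyr61 TPM against the summed TPM of 6 myoepithelial markers (left) and of 6 adipocyte markers (middle), and Ankrd1 TPM against that of 6 skeletal muscle markers (right), all on log axes. Points are libraries named by mouse, colored by group, with the repeat libraries open. Glands 417_3 and 517_3 combine Cyr61 of 749 and 636 TPM with the highest myoepithelial sums, and gland 392 combines the highest muscle sum with 1.63 TPM of Ankrd1.

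Amotl2, a scaffold protein of the angiomotin family that binds YAP and holds it outside the nucleus, is also induced by YAP. It lies on chromosome 9 from 102716672 to 102733418 (plus strand). It had 21.8, 38.3 and 20.0 TPM in carcinosarcomas 64, 567 and 897, and 27.5, 14.5 and 30.1 TPM in carcinomas 89, 273_5 and 3956. The control glands had 54.3, 57.3, 49.6 and 37.4 TPM in mice 133, 392, 417_3 and 517_3. The groups overlapped only in that tumor 567 was above gland 517_3. Its log2 fold change between Trim24COE tumors and glands was -0.99 (SE 0.27, adjusted p = 0.0301 in limma), with 49.6 ± 8.78 TPM (SD, n = 4) in the glands and 25.4 ± 8.41 TPM (SD, n = 6) in the tumors. The call was lost without tumor 64, without tumor 897, and without gland 133, 392 or 417_3, at adjusted p from 0.0585 to 0.0797. It was also lost with no filter on low values and with the adipocyte covariate (limma adjusted p = 0.184 with the covariate). Neither class passed on its own: the log2 fold change was -0.91 in the carcinosarcomas (limma adjusted p = 0.0596) and -1.06 in the carcinomas (limma adjusted p = 0.109). Among 6 endothelial markers, 3 fell (Pecam1, Kdr and Tek), and the sum of the 6 was 78.9 to 331 TPM in the tumors and 309.3 to 430.4 TPM in the glands. Their part in the Amotl2 difference was not tested.

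Ajuba encodes a LIM-domain protein that binds LATS kinases and limits their action on YAP. Carcinomas 89 and 3956 had 34.1 and 36.4 TPM, the highest values of all mice, but carcinoma 273_5 had 5.71 TPM, inside the range of the control glands (5.03 to 10.6 TPM). The carcinosarcomas were more alike, with 12.6, 11.5 and 14.7 TPM in mice 64, 567 and 897, and all 3 lay above every gland, as did 15.4% of the genes tested. The log2 fold change over the 6 tumors was 1.07 (SE 0.47, adjusted p = 0.139 in limma), and it passed only without carcinoma 273_5 among the alternatives tried (1.34, limma adjusted p = 0.046). In the carcinosarcomas it was 0.78 (SE 0.32, adjusted p = 0.108 in limma), and in the carcinomas 1.36 (SE 0.62, adjusted p = 0.257 in limma), where it reached 2.17 without 273_5 (limma adjusted p = 0.0472).

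Ctgf and Cyr61 encode secreted matricellular proteins of the CCN family. Their levels divided the control glands more than they divided tumor from gland. Cyr61 had 23.3 TPM in gland 133 and 19.3 TPM in gland 392, but 749 TPM in gland 417_3 and 636 TPM in gland 517_3. The 6 Trim24COE tumors lay between these, from 47.0 TPM in carcinoma 273_5 to 259 TPM in carcinosarcoma 567. No tumor reached the level of glands 417_3 and 517_3, and none was as low as glands 133 and 392. Ctgf showed the same split among the glands, with 18.9, 35.7, 174 and 150 TPM in mice 133, 392, 417_3 and 517_3. Its tumor values ran from 34.7 TPM in carcinosarcoma 897 to 198 TPM in carcinoma 3956.

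The log2 fold change between Trim24COE tumors and glands was -0.07 for Cyr61 (standard error 1.03) and 0.22 for Ctgf (standard error 0.65), with limma adjusted p of 0.974 and 0.852. Both standard errors exceed the differences. With the adipocyte covariate Cyr61 was lower in the tumors, by a log2 fold change of -2.79 (limma adjusted p = 0.0298). The adipocyte sum was lower in every tumor (89.8 to 1018 TPM) than in every gland, so this covariate moves in part with the group. That fit cannot fully separate the covariate from the group. Glands 417_3 and 517_3, where both genes were high, had few adipocyte and many myoepithelial and epithelial transcripts. Acta2, a contractile gene of myoepithelial cells, had 1413 and 1498 TPM there, against 156.7 and 185.1 TPM in glands 133 and 392. Carcinoma 89 had a myoepithelial sum of 3527 TPM, close to glands 417_3 and 517_3, and 92.2 TPM of Cyr61. Its Krt5, Krt14, Krt17 and Trp63 lay above those of glands 417_3 and 517_3. Its Acta2 was 175 TPM, between glands 133 and 392, and its Myh11 was 3.79 TPM, below every gland. Between the tumor classes, Ctgf was 46.1, 83.7 and 34.7 TPM in the carcinosarcomas and 105, 69.3 and 198 TPM in the carcinomas, a log2 fold change of -1.13 (standard error 0.47) that did not pass (limma adjusted p = 0.329).

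**Figure D3:**
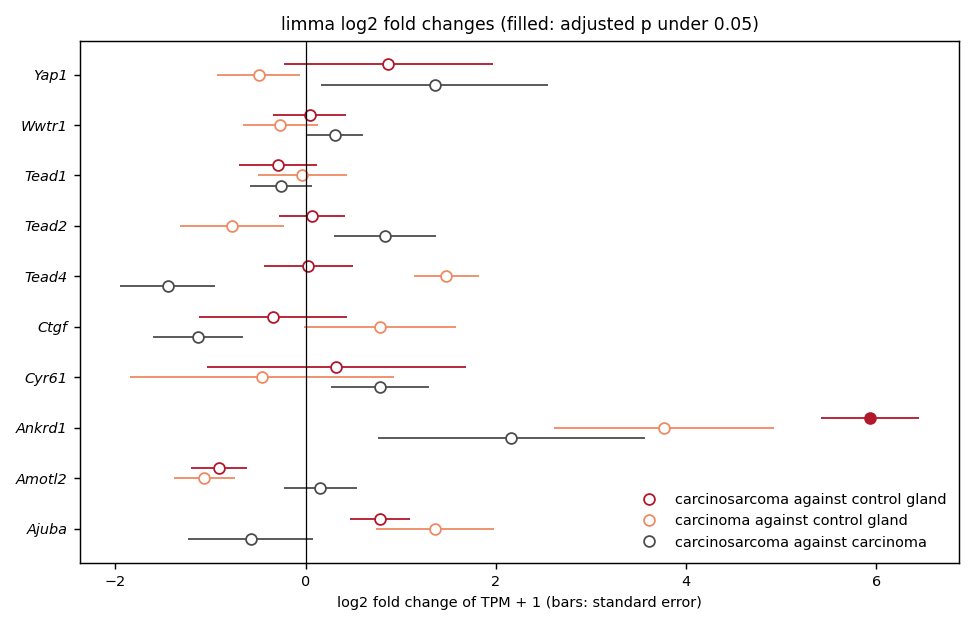
limma log2 fold changes of TPM + 1 for the 10 genes, with standard errors as bars, for carcinosarcomas and carcinomas against control glands and against each other. Filled points passed an adjusted p of 0.05. Ankrd1 in the carcinosarcomas (5.94) is the filled point, and the bars of Cyr61 against the glands are the longest of the 10 genes.

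Of the 2 co-activators, Yap1 stood out in 1 tumor. Carcinosarcoma 897 had 1011 TPM, against 33.2 TPM in carcinosarcoma 64 and 47.5 TPM in carcinosarcoma 567. The carcinomas had 47.8, 53.1 and 36.6 TPM, and the control glands 39.9, 39.0, 116 and 91.9 TPM in mice 133, 392, 417_3 and 517_3. Outside tumor 897, then, Yap1 was highest in the 2 glands rich in both myoepithelial and epithelial transcripts. The log2 fold change between Trim24COE tumors and glands was 0.19 (SE 0.86, adjusted p = 0.905 in limma) and became -0.56 without tumor 897. In the carcinosarcomas it was 0.87 (standard error 1.10) and became -0.67 without it, and neither value passed.

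Genes next to Yap1 were also high in tumor 897. Yap1 lies on chromosome 9 from 7931999 to 8004596 (minus strand). The stretch from 6928503 to 9239101 holds 17 protein-coding genes with a median of at least 0.5 TPM over the 10 batch 1 mice, and 11 of them, Yap1 included, were higher in tumor 897 than in each of the other 9 mice. The ends of the stretch were set at the outermost genes that were high in tumor 897, Dync2h1 and Arhgap42. Tumor 897 was the highest of the 10 for 4.38% of the 14300 genes whose median in the other 9 mice was at least 1 TPM. These neighbors were looked at after the Yap1 values were seen, and this comparison of 1 library has no test.

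The genes nearest to Yap1 on either side show the pattern. Birc3 and Birc2, inhibitors of apoptosis, had 323 and 113 TPM in tumor 897, where the highest of the other 9 mice had 164 and 71.4 TPM. Cfap300, a gene of cilia 17 kb from Yap1, had 153 TPM, and no other of these mice had more than 8.67 TPM. Cep126, a centrosome gene, had 120 TPM against at most 4.65 TPM. Farther out, Dcun1d5, a cullin neddylation factor, had 3679 TPM against 52.2 to 135 TPM. Dync2h1, a dynein heavy chain of cilia, had 40.6 TPM against at most 5.13 TPM, and Arhgap42, 990 kb away, had 423 TPM against at most 43.4 TPM. Within the stretch, Trpc6 (0.49 TPM) and Pgr (0.30 TPM) were not high in tumor 897. Mmp13 was high there (667 TPM) but higher still in carcinoma 3956 (898 TPM), the highest of the other 9.

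The nearest expressed genes outside the stretch were not high in tumor 897, which follows from how its ends were set. Over the 24 expressed protein-coding genes examined on its flanks, ratios to the median of the other mice ran from 0.357 to 1.80. Pdgfd on the side of lower coordinates had 2.06 TPM (ratio 0.523), and Jrkl, the nearest expressed gene on the side of higher coordinates, had 4.14 TPM (ratio 0.699). Of the 16 annotated genes between 6000000 and 10000000 on chromosome 9 with a median of at least 1 TPM in the other mice, 11 were at least 5-fold above that median in tumor 897, against 1.12% of the 14300 genes that met the same minimum. The same count was 0 to 4 in each of the other 9 mice. Genomic DNA of this tumor is not analysed here.

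**Figure D4:**
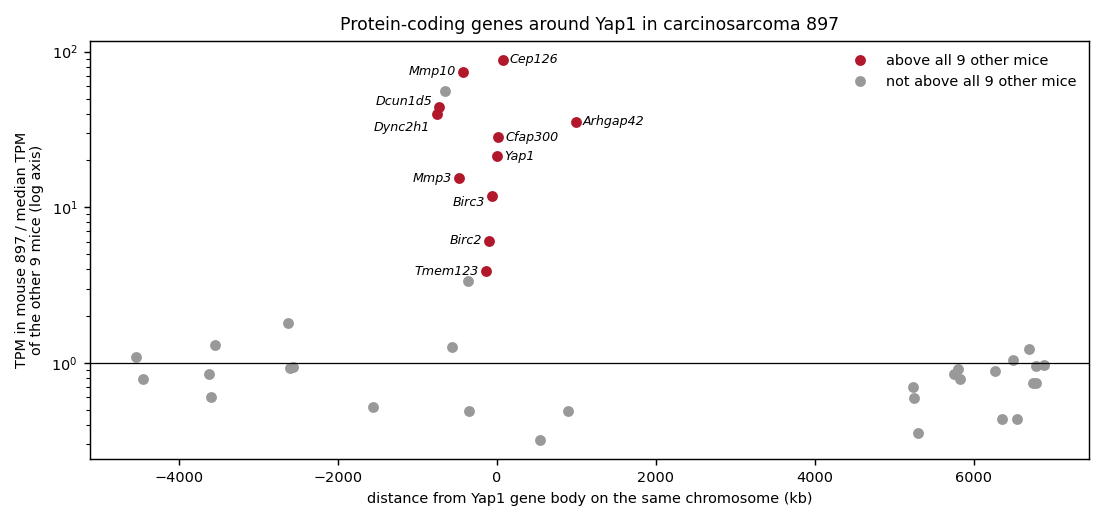
TPM in carcinosarcoma 897 divided by the median TPM of the other 9 batch 1 mice (log axis) for expressed protein-coding genes, against distance in kb from the Yap1 gene body (negative: lower coordinates). Red points are above all 9 other mice. Yap1 (ratio 21.3) and the red neighbors lie within 990 kb, and the flanking genes lie between 0.357 and 1.80.

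The target genes of tumor 897 did not follow its Yap1 level. Ctgf was the lowest of the 6 Trim24COE tumors (34.7 TPM) and Amotl2 the second lowest (20.0 TPM). Ankrd1 was 83.6 TPM, below carcinosarcomas 64 and 567, and Cyr61 was 133 TPM, below carcinosarcoma 567 and carcinoma 3956. Ajuba was 14.7 TPM, the highest of the carcinosarcomas but below carcinomas 89 and 3956.

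Wwtr1, the gene of TAZ on chromosome 3 (57455649 to 57575910, minus strand), did not separate the groups. It had 29.5, 44.9 and 44.9 TPM in carcinosarcomas 64, 567 and 897, and 28.6, 25.7 and 41.7 TPM in carcinomas 89, 273_5 and 3956. The control glands had 26.0, 25.2, 64.2 and 48.6 TPM, again with the higher values in 417_3 and 517_3. All 6 tumors lay inside the range of the glands, and the log2 fold change was -0.11 (SE 0.31, adjusted p = 0.836 in limma). The log2 ratio of Wwtr1 to Yap1 was -0.741 ± 0.158 (SD, n = 4) in the glands and -1.04 ± 1.73 (SD, n = 6) in the tumors. Without tumor 897, at -4.46, the tumors' mean was -0.359. The difference did not pass with or without this tumor (exact permutation test, p = 0.914 and p = 0.19). Carcinoma 3956, at 0.184, was the Trim24COE tumor with more Wwtr1 than Yap1.

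TEAD proteins supply the DNA binding. Tead2 was the most abundant of the 4 family members in every control gland and in 5 of 6 Trim24COE tumors, and Tead4 the least abundant in each gland. Tead2 had 33.1 to 79.6 TPM in the glands, 47.1 to 66.5 TPM in the carcinosarcomas and 27.9, 69.0 and 14.1 TPM in carcinomas 89, 273_5 and 3956. Tead1 had 9.38 to 31.7 TPM in the glands, 11.4 to 12.8 TPM in the carcinosarcomas and 10.1 to 22.0 TPM in the carcinomas. In carcinoma 3956, Tead1 (22.0 TPM) exceeded Tead2 (14.1 TPM), but in its repeat library Tead2 was above Tead1, at 16.4 against 13.2 TPM. Neither gene differed between tumors and glands beyond its spread (log2 fold change -0.35 with standard error 0.44 for Tead2 and -0.16 with standard error 0.34 for Tead1, limma adjusted p = 0.619 and 0.785).

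The share of Tead2 in the summed TPM of Tead1 to Tead4 was 56.7% ± 4.77 (SD, n = 4) in the glands and 57.9% ± 20.8 (SD, n = 6) in the tumors (exact permutation test, p = 0.905). The shares were more widely spread among the tumors. The share was 72.5%, 74.6% and 66.7% in carcinosarcomas 64, 567 and 897, above the first library of every gland (50.1% to 60.6%). The repeat library of gland 133 had 67.3%, above carcinosarcoma 897. In the carcinomas it was 38.2%, 70.1% and 25.4% in mice 89, 273_5 and 3956. The difference in spread was not tested.

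Tead4 was the member with the clearest class pattern. The carcinomas had 8.08, 10.1 and 6.54 TPM in mice 89, 273_5 and 3956, and the control glands had 1.35, 1.98, 3.78 and 2.43 TPM. Every carcinoma lay above every gland, as did 10.7% of the genes tested in that comparison. The log2 fold change was 1.48 (SE 0.34, adjusted p = 0.058 in limma), which did not pass, and no member passed among the carcinomas, against 3.5% of all genes. With quantile normalization it was 1.65 and with upper quartile scaling 1.41, and both passed (limma adjusted p = 0.0366 and 0.0433). The carcinosarcomas had 1.15 and 1.43 TPM in mice 64 and 567 and 6.14 TPM in mouse 897. In the first libraries all 3 lay below every carcinoma, and 14.4% of genes had such an order. The log2 fold change was -1.45 (SE 0.50, adjusted p = 0.265 in limma). The repeat library of carcinoma 3956 had 5.82 TPM, below carcinosarcoma 897, so the order did not hold there. No member passed between the tumor classes, against 0.698% of all genes. Of 5 epithelial markers, none passed between the tumor classes (limma adjusted p from 0.0598 to 0.478). In 3 of them every carcinosarcoma lay below every carcinoma. One of these, Epcam, had 10.3, 36.4 and 2.73 TPM in carcinosarcomas 64, 567 and 897 and 280.5 to 1275 TPM in the carcinomas. Krt8 and Krt19 overlapped: Krt8 was 914 TPM in carcinosarcoma 897 and 306.5 TPM in carcinoma 89, and Krt19 was lowest in carcinoma 3956 (28.1 TPM). The part of epithelial cell content in the Tead4 values was not tested.

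**Figure D5:**
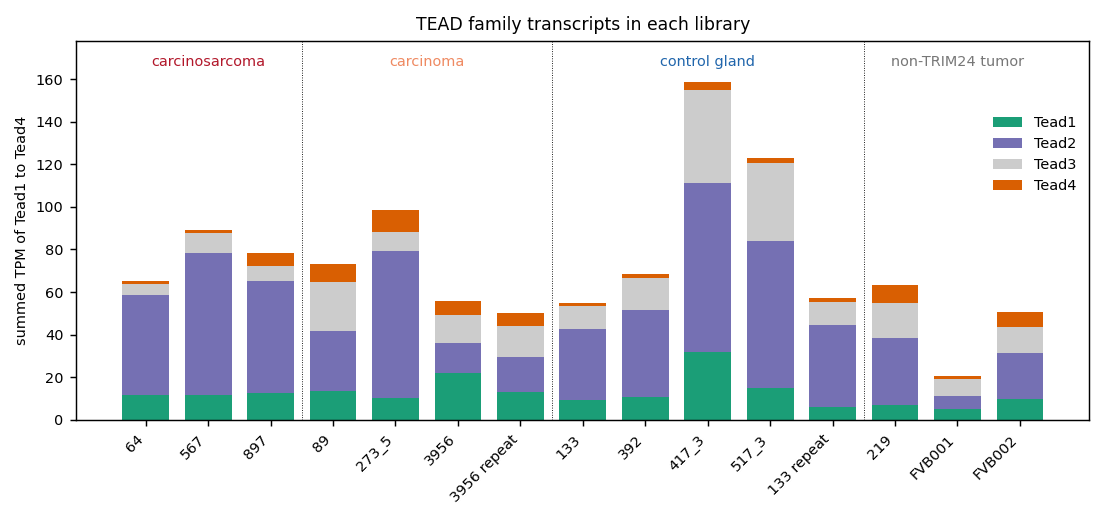
Summed TPM of Tead1 to Tead4 in each library, stacked by gene and ordered by group, with the repeat libraries beside their mice. Tead2 is the largest part in each carcinosarcoma (66.7% to 74.6%), and Tead4 takes 10.3% to 11.8% in the carcinomas and 2.0% to 2.9% in the first libraries of the control glands.

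In the carcinosarcomas alone, 1 of the 10 members passed (Ankrd1), against 23% of the 15287 genes tested. The pathway around these genes was read from lists of known components. Of 11 Hippo kinases and adaptors (such as Stk3, Stk4, Lats1 and Lats2), none passed in any of the 7 comparisons, and their median log2 fold change between Trim24COE tumors and glands was 0.14, against -0.04 for all genes tested. Of 14 upstream regulators, 1 passed in the carcinosarcomas. This was Wwc1 (KIBRA), a scaffold that helps to activate LATS. It had 2.34, 2.05 and 4.55 TPM in carcinosarcomas 64, 567 and 897, 24.3, 30.9 and 29.7 TPM in carcinomas 89, 273_5 and 3956, and 12.2, 11.4, 48.5 and 36.9 TPM in glands 133, 392, 417_3 and 517_3. The carcinosarcomas lay below all other Trim24COE tumors and glands, and 14.4% of genes tested between the classes lay below every carcinoma. Non-TRIM24 tumors 219, FVB001 and FVB002 had 17.2, 1.95 and 17.95 TPM, so FVB001 lay below every carcinosarcoma. The log2 fold change of Wwc1 in the carcinosarcomas was -2.62 against the glands (SE 0.56, adjusted p = 0.0145 in limma). Against the carcinomas it was -2.93 (SE 0.32, adjusted p = 0.019 in limma). Epithelial markers moved with it: 3 of 5 (Epcam, Cdh1 and Krt19) fell in the carcinosarcomas against the glands. The part of epithelial cell content was not tested. The call against the glands was lost in 3 of 15 alternatives, without tumor 64 (limma adjusted p = 0.0671), without tumor 567 (0.0592) and with no filter on low values (0.0515). The call against the carcinomas was lost in 5 of 14, without tumor 64 (0.143), 567 (0.0614) or 89 (0.0762), with no filter (0.0859) and with the adipocyte covariate (0.182).

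Among 18 other known YAP and TAZ target genes, 17 were tested between Trim24COE tumors and glands and 4 rose: Igfbp3, Nt5e, Myof and Asap1. None fell, and over all genes 7.96% rose and 9.13% fell. The macrophage markers (5 of 5) and fibroblast markers (3 of 7) that rose did so in the same tumors, and their part in these values was not tested. The list's median log2 fold change was 0.07. Igfbp3, a binding protein of insulin-like growth factors, had 109.6 to 737.7 TPM in the tumors and 10.8 to 57.6 TPM in the glands (log2 fold change 3.34, SE 0.57, adjusted p = 0.00361 in limma), and the groups did not overlap. It passed in all 18 alternatives. Nt5e, the ectonucleotidase CD73, rose by 2.15 (limma adjusted p = 0.02). Myof, the membrane repair protein myoferlin, rose by 2.11 (limma adjusted p = 0.0297). Asap1, an Arf GTPase-activating protein, rose by 0.98 on the log2 scale (limma adjusted p = 0.0359). Of 18 alternatives, the call was lost in 4 for Nt5e (without gland 133 or 392 among the mice, adjusted p up to 0.24), in 6 for Myof (without tumor 567 or 897 or gland 133 or 392, up to 0.324) and in 10 for Asap1 (without any tumor of 64, 567, 897 and 3956 or any gland, up to 0.207). For all 3 genes it was also lost with no filter on low values and with the adipocyte covariate, which gave the highest of these adjusted p. In the carcinosarcomas 6 of 18 rose and 2 fell, against 9.83% and 13.1% of all genes, with the larger rises in Igfbp3 (3.97) and Foxf2 (2.99). Foxf2 met the filter only through the carcinosarcomas. Igfbp3 and Foxf2 passed in all 15 alternatives. The call was lost in 9 for Axl, 8 for Myof, 5 for Nt5e and 3 for Asap1 (limma adjusted p up to 0.377, 0.243, 0.159 and 0.0755). F3, the gene of tissue factor, was lower in the carcinosarcomas by -2.14 (limma adjusted p = 0.0152), and Crim1, a membrane protein that binds BMPs, by -1.61 (limma adjusted p = 0.0457). Of 15 alternatives, F3 lost its call in 4 (without tumor 64 or 897 among the mice, adjusted p up to 0.0694) and Crim1 in 9 (without any of the carcinosarcomas or gland 392, 417_3 or 517_3 among the mice, up to 0.163). None of the 17 tested passed in the carcinomas.

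Foxf2, a forkhead factor of mesenchymal cells, was higher in the carcinosarcomas than in every other mouse. It had 11.4, 7.16 and 6.72 TPM in carcinosarcomas 64, 567 and 897. The carcinomas had 0.79, 0.19 and 0.26 TPM, the glands 0.05 to 0.28 TPM and the non-TRIM24 tumors 0.02 to 0.09 TPM. Foxf2 reached 1 TPM only in the carcinosarcomas and met the filter through this group alone, so its tests are no independent support. Its log2 fold change on the TPM + 1 scale was 2.99 against the glands (SE 0.27, adjusted p = 0.000828 in limma), 2.73 against the carcinomas (SE 0.33, adjusted p = 0.0201 in limma) and 2.97 against the non-TRIM24 tumors (SE 0.34, adjusted p = 0.00345 in limma). The pseudocount makes these folds smaller than those of the TPM values. The adjusted p between the tumor classes rose to 0.094 without tumor 897, 0.0882 without 567, 0.15 without 64, 0.0547 without 273_5 and 0.0762 without 89, and to 0.185 with no filter on low values and 0.217 with the adipocyte covariate. In those last settings no gene passed between the classes (limma, 0 of 35695 and 0 of 14193 genes, with 2871 and 1009 at an unadjusted p under 0.05). Of 7 fibroblast markers, 4 rose in the carcinosarcomas against the glands, and the sum of the list was 2072 to 7988 TPM in the carcinosarcomas and 297.3 to 2916 TPM in the carcinomas. The part of fibroblast content in the Foxf2 values was not tested. Of the TEAD partners Tead3 and Vgll1 to Vgll4, 3 of 5 were expressed enough to be tested, and none passed in any comparison.

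The non-TRIM24 tumors were compared with the other groups in fits that held all 15 libraries and a batch term, which is set by the 2 mice with a library in each batch. In these fits no YAP-TEAD gene passed against the control glands, against the carcinomas or against the carcinosarcomas. Over all 16775 genes tested, 0.107%, 0.0179% and 0.0775% passed in these comparisons. Ankrd1 had 2.61, 0.20 and 1.37 TPM in tumors 219, FVB001 and FVB002. These values lay near those of the control glands, and every Trim24COE tumor lay above them, an order that 30.1% of genes showed for the carcinomas and 29.5% for the carcinosarcomas. The log2 fold change of Ankrd1 was 5.79 for carcinomas against non-TRIM24 tumors (SE 1.45, adjusted p = 0.147 in limma) and 7.43 for carcinosarcomas against them (SE 1.70, adjusted p = 0.0859 in limma). Without the batch term both passed, at 4.18 and 6.34 (limma adjusted p = 0.0395 and 0.00536), but group and batch then cannot be told apart. The fits with a batch term count both libraries of gland 133 and of tumor 3956. With the mouse as a block (duplicateCorrelation, 0.951 between libraries of a mouse), Ankrd1 passed for carcinosarcomas against non-TRIM24 tumors (6.05, limma adjusted p = 0.0177), and 799 in place of 13 of the 16775 genes passed. No member passed in the other 2 comparisons with this block, where 119 in place of 18 genes passed for non-TRIM24 tumors against glands and 5 in place of 3 for the carcinomas. The difference of Ankrd1 between non-TRIM24 tumors and glands was -1.10 (SE 1.45, adjusted p = 0.803 in limma).

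Amotl2 had 5.90, 35.6 and 26.0 TPM in tumors 219, FVB001 and FVB002, all below every first gland library, as were 23.9% of genes. The log2 fold change was -1.60 (SE 0.61, adjusted p = 0.399 in limma). Tead4 had 8.59, 1.44 and 6.89 TPM in the same order, so that 219 and FVB002 were at the level of the Trim24COE carcinomas. FVB001, the tumor richest in adipocyte transcripts, had the lowest value of the 3 for Yap1, Tead1, Tead2, Tead4, Ctgf, Cyr61, Ankrd1 and Ajuba. Its Cyr61 was 17.3 TPM, next to the 19.3 TPM of gland 392. The 2 libraries of gland 133 and the 2 of tumor 3956 differed by 0.697 or less on the log2(TPM + 1) scale for each of the 10 genes, with the largest gap in Tead1 of tumor 3956 (22.0 and 13.2 TPM).

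The genes most alike to each member over the 10 batch 1 mice were ranked by Pearson correlation of log2(TPM + 1) among 12416 named genes. These mice share the split of the glands and the tumor classes, so the values describe these samples, and the nearest of so many genes is always close. Yap1 was followed by Dync2h1 (r = 0.982) and Arhgap42 (0.981), both in the stretch around it that was high in tumor 897. Ankrd1 was followed by Slc25a24, a mitochondrial carrier (0.991), and Fbln2, a matrix protein (0.98). Wwtr1 was followed by Tmem117 (0.959) and Vcl, the focal adhesion protein vinculin (0.957). Tead1 lay nearest to Eea1 (0.981) and Map3k2 (0.958), Tead2 to Bhlhb9 (0.939) and Casc4 (0.877), and Tead4 to Swt1 (0.929) and Thumpd3 (0.926). Ctgf lay nearest to Git1 (0.974) and Med7 (0.971), and Cyr61 to Csnk1d (0.965) and Rbm18 (0.964). Amotl2 was nearest to Taf9b (0.979) and Fgd5, a gene of endothelial cells (0.978). Ajuba was nearest to the phosphatase gene Ptpn13 (0.953) and the cytokine gene Clcf1 (0.943). Among the members themselves, Wwtr1 and Cyr61 were the closest pair (0.919 over the 10 mice). Ankrd1 and Cyr61, both read as YAP targets, had a correlation of 0.206, and Yap1 and Ctgf had -0.094. The value for Yap1 and Ctgf includes tumor 897, which combined 1011 TPM of Yap1 with 34.7 TPM of Ctgf. It was not computed without this tumor, so it does not describe the other mice.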

How the data were processed

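Gene TPM values were taken as deposited. Per the study's methods, the authors trimmed reads with Trimmomatic, aligned them with STAR to GRCm38 (GENCODE M14) and estimated TPM with RSEM; the submitters' processing notes also name FastQC, TopHat, Cufflinks, DESeq and edgeR. The sources name different RNA and library kits, so strandedness is not settled, and reads of overlapping genes may be shared. TPM keeps no depth, so no counting interval can be given. Tables were joined by gene identifier.

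Fits used limma 3.58.1 (R 4.3.3) on log2(TPM + 1), two-sided, with Benjamini-Hochberg adjustment over all genes that reached 1 TPM in a minimum number of libraries, namely the number of mice in the smaller group (3 of 15 in fits with a batch term). Folds understate low genes. Comparisons of batch 1 groups used the first library of each mouse. Ratios were compared by exact permutation tests in SciPy 1.17.1. Code was tested on simulated data. Gene positions are from GENCODE M21 (GRCm38).

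The members and gene lists were chosen with earlier results of these data known. Named genes are the members, up to 4 list genes per direction and comparison with the smallest adjusted p, and the 2 most correlated genes per member. The target genes that rose in the carcinosarcomas are also named. The neighbors of Yap1 were picked once their values had been seen. The alternatives were another pseudocount, filters, quantile and upper quartile scaling, an adipocyte covariate, other fits, repeat libraries and the omission of each mouse. No protein sequence is shown.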

Additional observations from a re-analysis of the deposited data

Results flagged for a closer look

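The log2 values of the 10 genes and both ratios were searched for a mouse far from the others in its group, in 24 searches over the 4 control glands and the 6 Trim24COE tumors. Chance flags about 1 search in 20. The search flagged 2 values, both of tumor 897: Yap1 (1011 TPM, gap over range 0.865 against a critical value of 0.625) and the log2 ratio of Wwtr1 to Yap1 (-4.46, gap over range 0.742). The second value contains the first.

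Of 53 pathway genes tested, 2 differed between carcinosarcomas and carcinomas, by the test of the difference itself. Wwc1 was lower in the carcinosarcomas (log2 fold change -2.93, limma adjusted p = 0.019) and Foxf2 was higher (2.73, limma adjusted p = 0.0201), each in 3 of 3 tumors. Foxf2 met the filter of this test only through the carcinosarcomas. Over all genes tested, 0.698% passed in this comparison. Wwc1 lost its call in 5 of 14 alternatives and Foxf2 in 7 of 14, both of them with no filter on low values (adjusted p = 0.0859 and 0.185) and with the adipocyte covariate (0.182 and 0.217), where no gene passed in limma (2871 and 1009 had an unadjusted p under 0.05), and when some mice were left out.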

How the results depend on the processing

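Of 126 recomputed counts and ratios, 102 kept their direction and, for counts, stayed within 1.5 times, as did 564 of 677 recomputed gene values with their side of the threshold. In 82 of these, a gene past the threshold lost its call, and in 12 a gene gained one. The count of members past the threshold between Trim24COE tumors and glands was 1 in place of 2 with no filter on low values (Ankrd1) and with the adipocyte covariate (Cyr61), and 1 to 3 when each mouse was left out. In the carcinosarcomas against glands it was 2 in place of 1 with quantile normalization (Ankrd1 and Ajuba), 3 with the adipocyte covariate (Ankrd1, Ctgf and Cyr61) and 1 to 2 without each mouse. In the carcinomas it was 1 in place of 0 with quantile normalization or upper quartile scaling (Tead4) and with the adipocyte covariate (Cyr61), and 0 to 1 without each mouse. Against the non-TRIM24 tumors it was 1 in place of 0 (Ankrd1) with no batch term in both classes and with duplicateCorrelation by mouse in the carcinosarcomas, and 0 to 2 in the carcinomas without each mouse. The count stayed at 0 in all alternatives of non-TRIM24 tumors against glands and of carcinosarcomas against carcinomas. The cause was not tested.

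The difference in log2 ratio of Wwtr1 to Yap1 (tumors minus glands, -0.302) ran from -0.547 to 0.382 when each mouse was left out, turning without tumor 897, and that in the Tead2 share (1.24 percentage points) from -2.1 to 7.75. Between Trim24COE tumors and glands, leaving out each mouse gave log2 fold changes of -0.564 to 0.474 for Yap1, -0.302 to 0.137 for Wwtr1, -0.364 to 0.188 for Tead1, -0.36 to 0.685 for Ctgf and -0.937 to 0.799 for Cyr61. Yap1 was also -0.00449 with quantile normalization and -0.802 with the adipocyte covariate, which gave -0.884 for Ctgf. In the carcinosarcomas Yap1 ran from -0.674 to 1.77 against glands and -0.184 to 2.26 against carcinomas, and was -0.291 against glands with the adipocyte covariate. None of these values passed.

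Quantile normalization moved the median of all genes from -0.12 to 0.04 in the carcinosarcomas against glands, where 1868 genes were then higher and 1459 lower in place of 1503 and 2008. It moved it from -0.10 to 0.03 between the tumor classes, and from -0.21 to -0.06 in non-TRIM24 tumors against glands. No paired analysis was possible because replicate numbers were given in accession order and the labels tie no mice of different groups to each other. TPM holds no depth, so precision rests on 3 to 6 mice a group.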
